A study of Mus musculus with 7 samples.

Results

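Aminoacyl-tRNA synthetase genes were examined across 7 RNA sequencing libraries of mouse CD150-negative cells. A gene was taken as a member by its symbol in the deposited table: 1 capital letter followed by ars, with or without a closing 1 or 2, or the symbols Farsa, Farsb and Eprs. The rule found 37 members among 16760 listed genes, and no measured value entered it. Of these, 18 encode cytosolic enzymes, 17 encode mitochondrial enzymes (symbols ending in 2), and 2, Gars and Kars, supply both compartments from 1 gene. All 37 had passed the filter that the authors had applied before deposit.

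The libraries came from 4 wild-type (WT) samples and 3 samples with a deletion in chromosome band 5G2 (5G2del), the mouse counterpart of part of human 7q22, a segment lost in some myeloid malignancies. Every sample was of strain C57/B6 with the cell type HSC (haematopoietic stem cell) in its labels. Slamf1 encodes CD150, a surface protein. No further sort marker, age, sex, treatment or time is in the labels. The sources used here do not give the ends or zygosity of the deletion, or say that libraries of a group are separate animals. A p-value here therefore covers only the scatter of these libraries, which may be technical. The table gives the group of each library but not its sample number, so libraries carry letters here (A to C for 5G2del, A to D for WT), and values are given in that order.

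Aminoacyl-tRNA synthetases join each amino acid to its matching tRNA, the step that sets the genetic code before a ribosome reads it. The cytosolic set serves translation of nuclear messages, and a separate, also nuclear-encoded set is imported into mitochondria for translation of the few messages made from mitochondrial DNA. Blood stem cells are known for a low rate of protein synthesis, and uncharged tRNA activates the kinase GCN2 (Eif2ak4), which raises translation of the transcription factor ATF4. ATF4 in turn is known to bind many cytosolic synthetase genes and genes of amino acid synthesis and import.

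Each library held 37930174 to 52194274 expected counts over the listed genes. WT-B had 1104 genes at 0 counts, and the other libraries had 83 to 492. Mitochondrial ribosomal RNA made up 22.9% to 27.8% of counts in 5G2del and 25.3% to 33.4% in WT. Cux1, a 5G2 gene, stood at 6.80 to 8.01 log2 CPM (CPM is counts scaled to a common library total) in 5G2del and at 8.17 to 8.59 in WT, with no overlap of the groups. Of 8 stem and progenitor markers, Slamf1 among them, 8 were listed, with a summed level of 1222 to 1392 CPM in the 7 libraries. Kit averaged 8.20 ± 0.02 log2 CPM (SD) over the 3 5G2del libraries and 8.11 ± 0.10 over the 4 WT libraries. Slamf1 was low, at 0.56 ± 0.14 and -1.10 ± 0.98 log2 CPM, and higher in 5G2del with no overlap of the groups. The 8 neutrophil and monocyte markers summed to 1566, 208 and 242 CPM in 5G2del and to 166 to 521 CPM in WT. The upper end in 5G2del was thus 5G2del-A alone, and Ltf and Lcn2 were at 0 counts in WT-B. The 4 measured B lineage markers summed to 536, 56.1 and 327 CPM in 5G2del and to 31.3 to 133 CPM in WT. Median log2 fold changes (5G2del over WT) were 2.15 and 1.69 for these lists. Those of the other cell lists ran from -1.43 (erythroid) to 1.18 (mast and basophil, 1 gene). What such cells add to the synthetase values was not tested. No member lies on chromosome 5, which carries the deleted band.

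The first question was how the cytosolic set compares with the mitochondrial set within these cells. Per kilobase of exons (the union of a gene's annotated exons), the median cytosolic gene stood at 8.86 ± 1.53 CPM per kb and the median mitochondrial gene at 2.09 ± 0.25 CPM per kb (SD, n = 7 libraries). The ratio of these medians was 4.25 ± 0.52, from 3.41 in WT-D to 4.78 in 5G2del-C. It was above 1 in every library, so the median cytosolic gene was the higher under both genotypes. With the length of the longest transcript in place of the exon union, the ratio was 3.99 ± 0.59. Sums over the sets differ from the medians because of 1 gene, Lars2. The 18 cytosolic genes summed to 949 ± 145 CPM and the 17 mitochondrial genes to 1063 ± 142 CPM, of which all but Lars2 made up 219 ± 17.3 CPM (SD, n = 7). Per kilobase of exon union the cytosolic sum was the larger in 7 of 7 libraries (190 ± 29.9 against 116 ± 12.3 CPM per kb), and per kilobase of longest transcript in 4 of 7 (289 ± 42.5 against 276 ± 36.8 CPM per kb). The levels of all members in log2 CPM, without division by length, are shown in the plot of members by library.

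**Figure D1:**
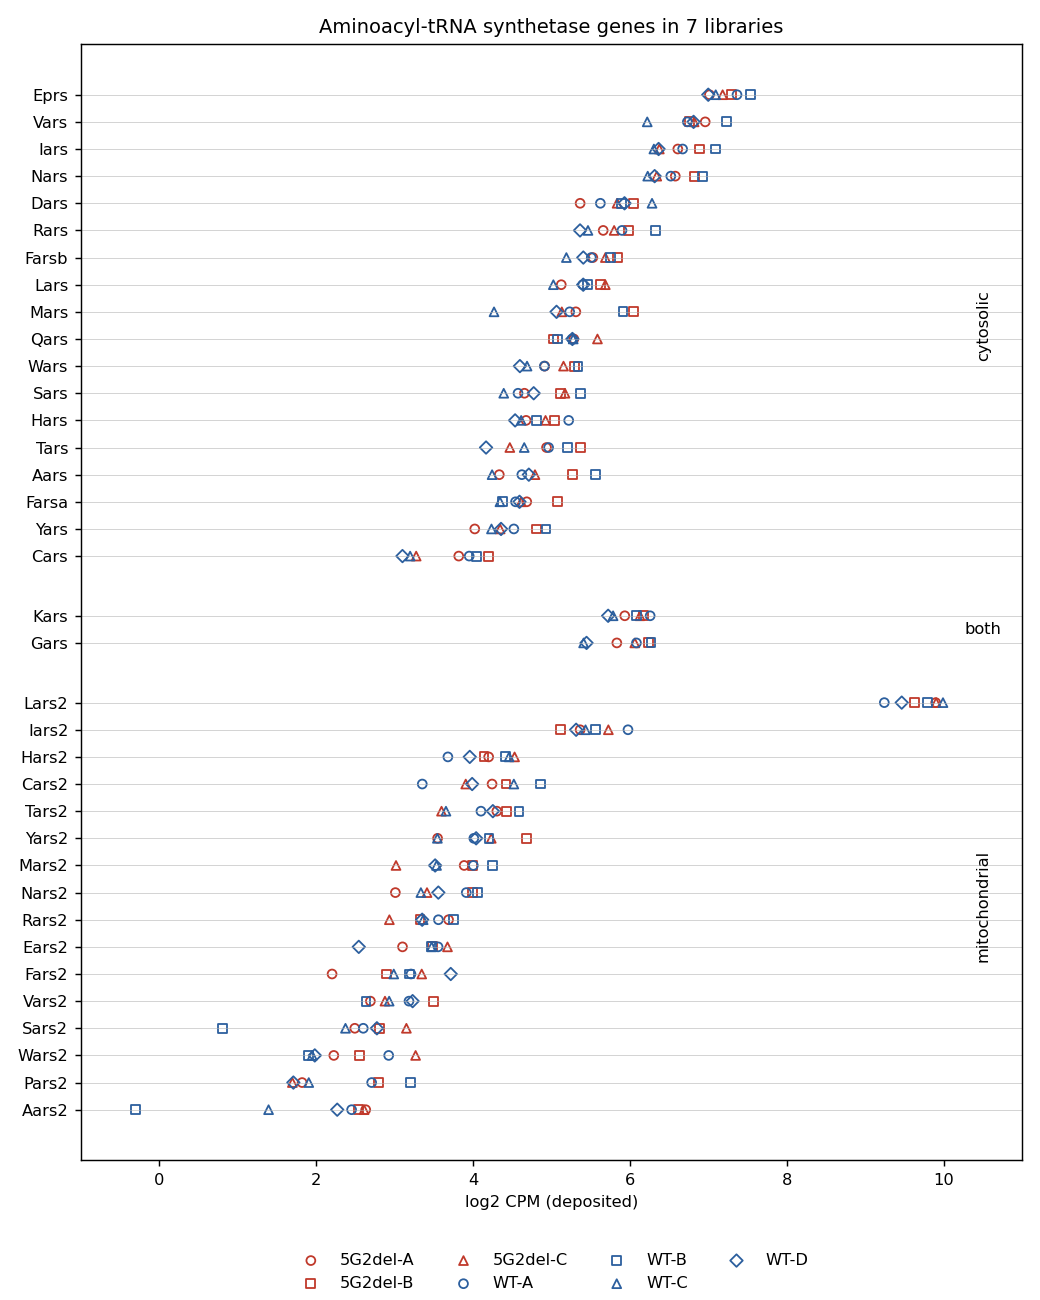
Level of 36 of the 37 synthetase genes in log2 CPM (horizontal axis) in each library; red symbols are 5G2del, blue symbols are WT, and the symbol shape marks the library. Lars2 lies far right of the other mitochondrial genes, at 9.24 to 9.99, and the lowest point is Aars2 in WT-B, at -0.31.

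Among cytosolic enzymes, Nars, which charges asparagine tRNA, was highest per kilobase of exons at 21.5 ± 4.04 CPM per kb (SD, n = 7). Vars, for valine, and Iars, for isoleucine, followed at 20.1 ± 4.01 and 18.9 ± 4.01 CPM per kb. These 3 means lay closer together than their SD over libraries, and the genes were not compared within each library. In log2 CPM, Nars measured 6.58, 6.82 and 6.34 in the 5G2del libraries and 6.52, 6.92, 6.22 and 6.31 in the WT libraries. WT-B and 5G2del-B were the highest pair and WT-C the lowest, and the groups overlapped.

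Vars measured 6.96, 6.76 and 6.82 log2 CPM in 5G2del and 6.73, 7.23, 6.22 and 6.81 in WT. Iars measured 6.61, 6.88 and 6.37 log2 CPM in 5G2del and 6.67, 7.09, 6.30 and 6.36 in WT. WT-B was again the highest and WT-C the lowest library for both genes. A processed pseudogene, Gm4849, matches the Iars transcript at 96.0% identity over 1656 bases, but at a mean of -0.76 log2 CPM it was far below Iars.

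At the lower end stood Yars, for tyrosine, at 3.77 ± 0.85, Aars, for alanine, at 3.13 ± 1.11, and Cars, for cysteine, at 1.99 ± 0.60 CPM per kb (SD, n = 7). The gap between Aars and Cars was about as large as the SD of Aars over libraries, and the 2 were not compared within each library. Aars measured 4.33, 5.27 and 4.79 log2 CPM in 5G2del and 4.62, 5.56, 4.24 and 4.71 in WT. Cars measured 3.82, 4.19 and 3.27 in 5G2del and 3.95, 4.05, 3.20 and 3.10 in WT. WT-B and 5G2del-B were the 2 highest libraries for both genes, and WT-A and 5G2del-A came next for Cars. The annotated Aars exons share 1326 bases with Exosc6 on the same strand, so reads there cannot be assigned to 1 gene by position.

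The order depends on which length divides the counts. Eprs, the fused enzyme for glutamate and proline, has 18.1 kb of exon union and a longest transcript of 5.64 kb, and it ranked 10 of 18 by the former and 5 of 18 by the latter, at 8.24 ± 1.16 and 26.5 ± 3.73 CPM per kb. In CPM alone Eprs was the highest cytosolic member. Nars, Vars, Aars and Cars kept the ranks 1, 2, 17 and 18 under both lengths. Gars, for glycine, and Kars, for lysine, whose single genes feed both compartments, stood at 19.7 ± 4.52 and 14.6 ± 1.99 CPM per kb of exon union (SD, n = 7), inside the cytosolic range and above 16 of 17 mitochondrial genes.

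The exception among mitochondrial enzymes was Lars2, the leucine enzyme, at 76.1 ± 13.5 CPM per kb of exon union (SD, n = 7). It measured 9.89, 9.63 and 9.90 log2 CPM in 5G2del and 9.24, 9.79, 9.99 and 9.46 in WT. Before division by length, its CPM was 9.62 to 23.5 times that of the next mitochondrial member in each library, and on average it made up 79.0% of the CPM of all 17. Lars2 was thus higher than every cytosolic synthetase in every library, by CPM and by CPM per kb. The lincRNA gene Gm26917, on chromosome 17, measured 11.4, 11.4 and 12.3 log2 CPM in 5G2del and 10.5, 11.3, 12.2 and 11.4 in WT. Gm42418, a lincRNA gene just downstream of it, measured 8.13, 8.29 and 8.82 log2 CPM in 5G2del and 8.01, 8.21, 8.98 and 8.07 in WT. WT-A was the lowest library for Lars2 and for both of these genes, WT-C was the highest for Lars2 and Gm42418, and 5G2del-C was the highest for Gm26917. Gm26917 and Gm42418 lie over ribosomal RNA repeats, and high values of these genes are commonly read as ribosomal RNA reads in a library. Whether such reads were also counted for Lars2, and so raise its level and its share, was not tested. A search of Lars2 transcripts against the other annotated transcripts found no stretch of at least 100 bases at 95% identity or more. That search could not find shorter or less similar stretches, or ribosomal RNA sequence outside annotated transcripts.

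After Lars2 came Yars2, the mitochondrial tyrosine enzyme, at 5.39 ± 1.53, and Iars2, the isoleucine enzyme, at 5.17 ± 1.06 CPM per kb. These means lay closer together than their SD over libraries. Yars2 measured 3.55, 4.68 and 4.23 log2 CPM in 5G2del and 4.01, 4.20, 3.54 and 4.04 in WT. Iars2 measured 5.36, 5.11 and 5.72 log2 CPM in 5G2del and 5.97, 5.56, 5.43 and 5.31 in WT. The library order was not shared: 5G2del-B was the highest for Yars2 and the lowest for Iars2. Exons of Iars2 overlap those of Rab3gap2 on the opposite strand over 2034 bases, and the files do not state whether counting used strand.

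The lowest mitochondrial members were Mars2, for methionine, at 1.22 ± 0.32, Aars2, for alanine, at 0.954 ± 0.431, and Wars2, for tryptophan, at 0.943 ± 0.378 CPM per kb. The means of these 3 lay closer together than their SD over libraries, and they were also the lowest 3 by longest transcript. Mars2 measured 3.88, 3.99 and 3.02 log2 CPM in 5G2del and 4.00, 4.24, 3.53 and 3.51 in WT. Aars2 had the smallest number of counts of any member, 33 expected counts in WT-B, whereas no cytosolic member was below 319 in any library.

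For 14 amino acids, 1 cytosolic and 1 mitochondrial gene could be set side by side. The cytosolic gene was higher per kilobase in all 7 libraries for 11 of the 14 pairs under either length. The widest gaps by exon union were those of Vars over Vars2 (geometric mean ratio 13.4, range 9.35 to 23.5), Nars over Nars2 (12.1, range 9.74 to 19.0), Wars over Wars2 (10.3, range 6.37 to 18.7) and Mars over Mars2 (9.58, range 5.48 to 14.3). At the other end, Lars over Lars2 was 0.104, from 0.0661 to 0.144, and remained below 1 in all 7 libraries with the longest transcript, at 0.0492.

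Of the 14 pairs, those for tyrosine, cysteine and threonine lay closest to 1. Yars over Yars2 was 0.709 by exon union and below 1 in 7 of 7 libraries, but 1.29 by longest transcript and above 1 in 7 of 7, so its direction rests on the length. Cars over Cars2 was 0.762 by exon union (range 0.440 to 1.66), with the cytosolic gene higher in 1 of 7 libraries under both lengths. Tars over Tars2 was 1.90 and above 1 in 7 of 7 libraries by exon union, and 1.43 and above 1 in 6 of 7 by longest transcript. Where 1 enzyme has no simple partner, the cytosolic gene was also the higher in all 7 libraries under both lengths. By exon union, Eprs exceeded Ears2 by 4.20 times and Pars2 by 5.28, and Farsa and Farsb, the subunits of the phenylalanine enzyme, exceeded Fars2 by 3.65 and 12.2. By longest transcript these ratios were 12.8, 16.7, 2.90 and 9.23.

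**Figure D2:**
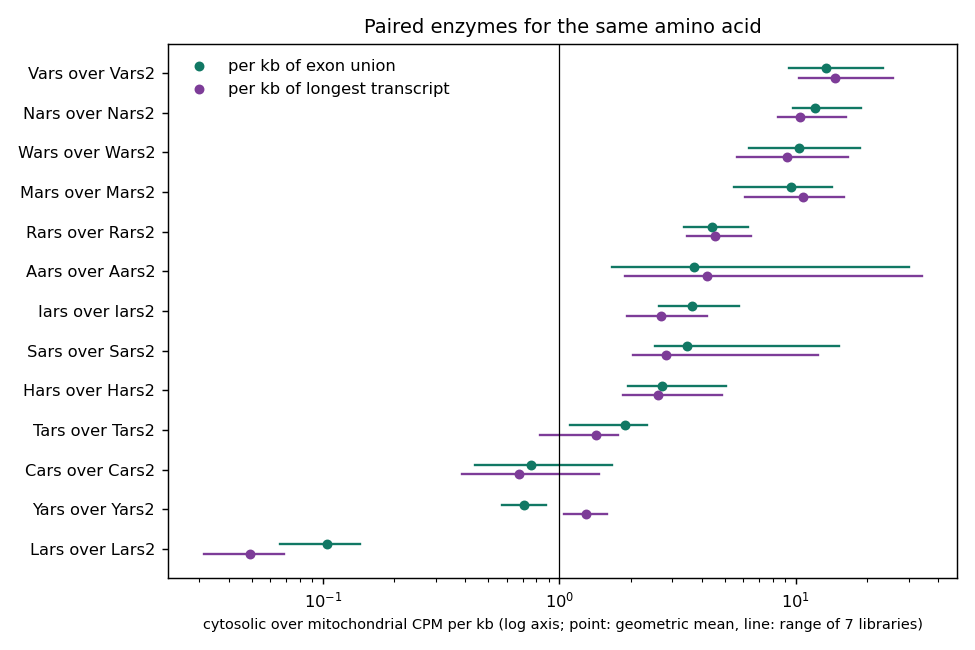
Ratio of the cytosolic to the mitochondrial gene in CPM per kb for 13 of the 14 amino acids (horizontal axis, log scale); points are geometric means and lines the range of 7 libraries, green for the exon union and purple for the longest transcript. Vars over Vars2 is widest at 13.4 and Lars over Lars2 lowest at 0.104 by exon union; Yars over Yars2 lies on opposite sides of 1 under the 2 lengths.

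The second question was how the members vary among libraries, apart from genotype. The cytosolic genes tended to be high in the same libraries: WT-B held the highest value of 9 of the 18 and 5G2del-B of 5, while WT-C held the lowest value of 9 and WT-D of 6. Among all genes whose mean exceeded 2 log2 CPM, 24.3% were highest in WT-B, 11.8% were highest in 5G2del-B, 15.6% were lowest in WT-C and 10.6% were lowest in WT-D. Each gene's deviation from its own mean over the 7 libraries had a cytosolic median of -0.05, 0.28 and 0.00 log2 units in the 3 5G2del libraries and of 0.00, 0.39, -0.31 and -0.18 in the 4 WT libraries. Over all genes above the same level, these medians lay between -0.01 and 0.03. The 2 libraries with the highest cytosolic medians were 1 of each genotype, and the 2 with the lowest were both WT.

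For the mitochondrial genes the median deviations were -0.13, 0.24 and 0.19 log2 units in 5G2del and 0.18, 0.14, -0.08 and -0.07 in WT. They were again above 0 in 5G2del-B and WT-B and below 0 in WT-C and WT-D, over a narrower range, and the likeness of the 2 orders was not tested. In WT-B, 12 of 17 stood above their own mean, yet Aars2 and Sars2 were lowest there, at -0.31 and 0.81 log2 CPM. WT-B was both the library with the most mitochondrial members at their highest, 6, and at their lowest, 5. The residual SD about the group means had a median of 0.31 log2 units for cytosolic members and 0.42 for mitochondrial members, whose median level was lower, at 3.61 against 5.26 log2 CPM. For all genes above 2 log2 CPM on average, the median residual SD was 0.32.

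**Figure D3:**
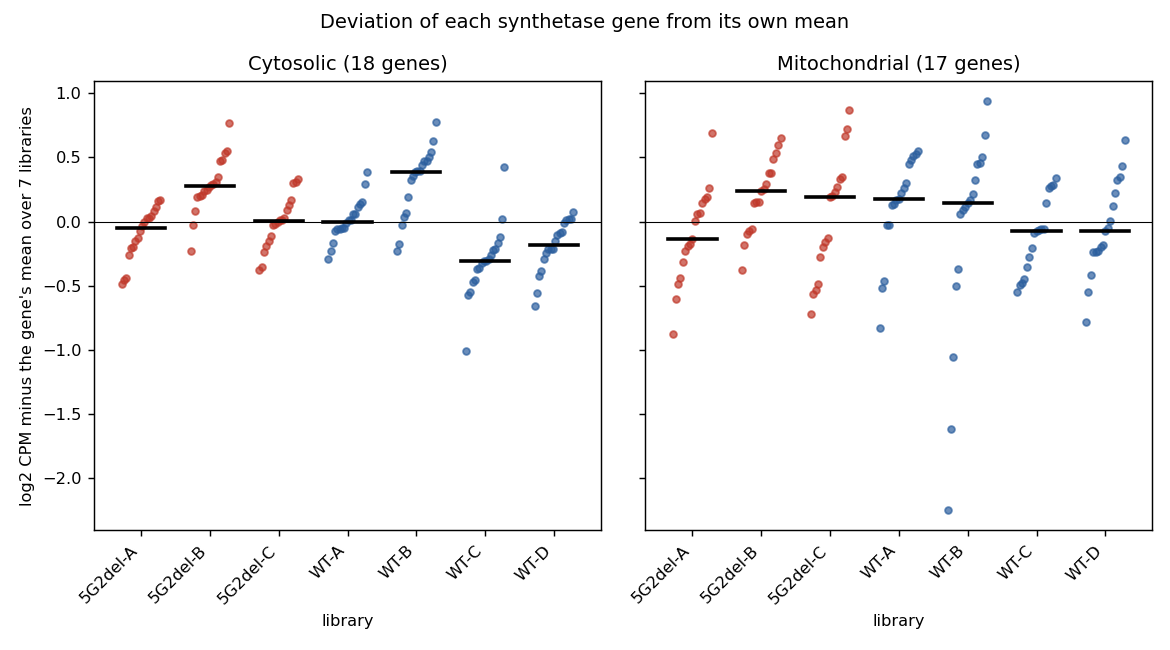
Deviation of each synthetase gene from its own mean over 7 libraries in log2 CPM (vertical axis), by library, for 18 cytosolic and 17 mitochondrial genes; points are genes in rising order, black bars are medians, red is 5G2del and blue is WT. The cytosolic medians are highest in WT-B (0.39) and 5G2del-B (0.28) and lowest in WT-C (-0.31) and WT-D (-0.18).

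Since ATF4 with a C/EBP partner is known to bind a composite element in cytosolic synthetase promoters, the promoters of members were read for the 8-letter motif TGATGNAA on both strands. Promoter sequences were available for 27 of the 37 members, as RefSeq windows of the GRCm38.p6 build from 250 bases before to 50 bases after the start. The unmatched members included Cars, Hars, Hars2, Lars, Nars, Pars2, Rars, Vars and Wars. The motif stood in 4 of 11 cytosolic promoters, in Gars and not in Kars, and in 0 of 14 mitochondrial members' promoters. Of 27025 genes with a promoter, 4.51% held it, as did 3.97% of all 32851 promoter windows. The 5 windows that hold it are printed to show where the motif lies in each: Aars at chr8:111033592-111033891 on the plus strand, Iars at chr13:49681880-49682179 on the plus strand, Tars at chr15:11399609-11399908 on the minus strand, Yars at chr4:129189653-129189952 on the plus strand and Gars at chr6:55037751-55038050 on the plus strand. Each is written 5′ to 3′ in the direction of the gene, and capitals mark the motif or its reverse complement.
Aars: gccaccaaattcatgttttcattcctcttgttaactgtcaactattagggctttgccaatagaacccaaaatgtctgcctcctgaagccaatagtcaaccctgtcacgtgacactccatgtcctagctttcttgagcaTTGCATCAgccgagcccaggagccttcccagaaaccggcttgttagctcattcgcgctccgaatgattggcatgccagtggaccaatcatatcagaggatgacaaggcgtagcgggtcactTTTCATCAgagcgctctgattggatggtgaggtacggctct
Iars: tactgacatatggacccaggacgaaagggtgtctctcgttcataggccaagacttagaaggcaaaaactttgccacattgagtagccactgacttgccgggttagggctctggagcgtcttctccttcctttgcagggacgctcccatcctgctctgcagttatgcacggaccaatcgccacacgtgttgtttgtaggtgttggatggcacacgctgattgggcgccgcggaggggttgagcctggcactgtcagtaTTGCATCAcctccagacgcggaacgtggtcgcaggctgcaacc
Tars: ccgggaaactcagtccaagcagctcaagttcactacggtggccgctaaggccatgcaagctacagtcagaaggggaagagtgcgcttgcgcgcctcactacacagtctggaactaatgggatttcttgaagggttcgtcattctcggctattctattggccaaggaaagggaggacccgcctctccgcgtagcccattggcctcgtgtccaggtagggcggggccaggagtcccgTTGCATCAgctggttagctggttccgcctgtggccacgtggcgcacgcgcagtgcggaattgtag
Yars: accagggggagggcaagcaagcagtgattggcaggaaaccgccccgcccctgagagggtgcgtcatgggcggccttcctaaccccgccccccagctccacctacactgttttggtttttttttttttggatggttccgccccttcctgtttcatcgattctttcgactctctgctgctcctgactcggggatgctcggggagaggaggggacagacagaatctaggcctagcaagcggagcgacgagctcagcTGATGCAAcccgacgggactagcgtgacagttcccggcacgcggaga
Gars: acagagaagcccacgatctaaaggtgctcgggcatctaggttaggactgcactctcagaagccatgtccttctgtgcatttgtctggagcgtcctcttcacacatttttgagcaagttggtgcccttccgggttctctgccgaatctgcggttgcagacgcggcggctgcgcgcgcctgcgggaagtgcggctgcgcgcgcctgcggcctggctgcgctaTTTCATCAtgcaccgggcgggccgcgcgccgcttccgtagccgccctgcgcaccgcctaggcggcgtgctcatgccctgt

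In Aars the motif begins -112 and 9 bases from the start, in Gars -30, in Iars 7, in Tars -15 and in Yars 3. Yars alone reads TGATGCAA on the gene's own strand, and the other 4 read TTGCATCA or TTTCATCA there. The match is a description of these letters and not of a bound site. The 5 genes with the motif had a median residual SD of 0.36 log2 units (range 0.32 to 0.52), and the 8 cytosolic or shared genes whose windows lack it (Dars, Eprs, Farsa, Farsb, Kars, Mars, Qars and Sars) had 0.21 (range 0.18 to 0.61). Mars, without the motif, had the widest spread of all 13. Tars, for threonine and with the motif, measured 4.93, 5.37 and 4.47 log2 CPM in 5G2del and 4.96, 5.20, 4.65 and 4.16 in WT, again highest in 5G2del-B and WT-B. Qars, for glutamine and without it, measured 5.28, 5.02 and 5.58 in 5G2del and 5.26, 5.07, 5.27 and 5.26 in WT, lowest in those same 2 libraries. Not all genes without the motif were like Qars. Mars (6.05 and 5.91) and Farsb (5.84 and 5.75) were also highest in 5G2del-B and WT-B. Dars, Eprs, Farsa, Kars and Sars did not have this pair as their 2 highest libraries. Whether the library order goes with the motif was not tested.

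Asns, asparagine synthetase and an ATF4 target, can be read beside them. It measured 4.12, 4.87 and 3.87 log2 CPM in 5G2del and 4.73, 4.64, 3.05 and 3.30 in WT, so that it was high in 5G2del-B, WT-A and WT-B and low in WT-C and WT-D. The 15 ATF4 targets with a mean log2 CPM over 2 averaged 5.06, 5.53 and 5.38 in 5G2del and 5.20, 5.35, 4.99 and 5.11 in WT. 5G2del-B was highest and WT-C lowest in that average. Atf4 itself measured 6.32, 6.44 and 7.01 log2 CPM in 5G2del and 6.26, 6.32, 6.71 and 6.77 in WT, an order unlike that of the cytosolic synthetases.

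The comparison that the design implies is 5G2del against WT. In limma-trend, 0 of 37 members passed a Benjamini-Hochberg adjusted p of 0.05, and 0 of 16760 genes did, 0% of those tested. At an unadjusted p under 0.05, 0 members stood against 656 genes (3.91%), and at the same limit the authors' deposited table held no member and 625 genes (3.73%). The lowest adjusted p of a member in limma was 0.989, and the lowest unadjusted p was 0.0848, for Aars2. By this test no call was made for any synthetase. The standard errors had a median of 0.21 log2 units for cytosolic and 0.30 for mitochondrial members. Differences of that size, and some larger ones, were not detectable with these libraries. Cux1, a 5G2 gene, was not called either, at a log2 fold change of -1.12 ± 0.25 (limma unadjusted p = 0.00101, adjusted p = 0.989). Such bulk values cannot tell fewer cells of a type from less RNA per cell.

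Of the 18 cytosolic members, 15 had a higher mean in 5G2del (83.3%), beside 53.3% of all genes and 53.7% of genes above 2 log2 CPM on average. The median cytosolic log2 fold change was 0.09, with a range of -0.18 to 0.38, and that of all genes was 0.03. This count rests on single libraries: it was 9 of 18 without 5G2del-B, 10 without WT-C and 11 without WT-D, and the median was then -0.01, 0.04 and 0.03. Of the 17 mitochondrial members, 9 had a higher mean (52.9%) and 8 a lower one (46.7% of all genes were lower), with a median of 0.01, and without Lars2 these were 8 and 8 with a median of -0.01. The mean over cytosolic members was 5.46 ± 0.20 log2 CPM in 5G2del and 5.36 ± 0.27 in WT (SD over 3 and 4 libraries). The mean over mitochondrial members was 3.85 ± 0.16 and 3.77 ± 0.11. The cytosolic minus the mitochondrial mean was 1.60, 1.68 and 1.54 in 5G2del and 1.49, 2.00, 1.39 and 1.45 in WT. Its group means of 1.61 ± 0.07 and 1.58 ± 0.28 differed by 0.03, less than the spread between WT libraries.

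Farsa, the catalytic subunit of the phenylalanine enzyme, and Aars2 were the 2 members whose groups did not overlap, both higher in 5G2del. Such a gap was seen in 5.70% of all genes, 2.92% in the higher and 2.78% in the lower direction. Farsa measured 4.68, 5.08 and 4.61 log2 CPM in 5G2del and 4.54, 4.37, 4.34 and 4.59 in WT. The lowest 5G2del value and the highest WT value were nearly equal, and 5G2del-B was the library farthest from the others. Its log2 fold change was 0.33 ± 0.19 (SE), with a 95% interval of -0.10 to 0.76. It was 0.19 without 5G2del-B and 0.42 without 5G2del-C. Farsb, the other subunit of the same enzyme, had overlapping groups at 5.52, 5.84 and 5.68 in 5G2del and 5.50, 5.75, 5.19 and 5.40 in WT.

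Aars2 measured 2.63, 2.54 and 2.61 log2 CPM in 5G2del and 2.45, -0.31, 1.39 and 2.27 in WT. The 5G2del libraries were close together, whereas WT spread from WT-B, at the lowest value of any member, up to WT-A just below 5G2del. The log2 fold change was 1.14 ± 0.60 (SE), with a 95% interval of -0.19 to 2.47. Without WT-B it was 0.56, and without WT-A it was 1.48, with an unadjusted limma p under 0.05 in the latter fit only. The fold change thus moved by over 1.5 times with WT-B, the library with the most genes at 0 counts.

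Other cytosolic members with the largest differences overlapped between groups. Mars, for methionine, measured 5.31, 6.05 and 5.13 log2 CPM in 5G2del and 5.23, 5.91, 4.27 and 5.06 in WT, a log2 fold change of 0.38 ± 0.35. That value was 0.094 without WT-C and 0.64 without WT-B. Its exons meet those of Ddit3 on the opposite strand over 68 bases. Wars, for tryptophan, measured 4.91, 5.29 and 5.15 in 5G2del and 4.91, 5.34, 4.69 and 4.60 in WT. Its log2 fold change was 0.24 ± 0.21, with 0.14 without WT-D and 0.39 without WT-B. In both genes WT-B was as high as 5G2del-B or nearly so, and the low WT values came from WT-C and WT-D.

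In the opposite direction stood Dars, for aspartate, at 5.36, 6.04 and 5.83 log2 CPM in 5G2del and 5.62, 5.89, 6.28 and 5.93 in WT, a log2 fold change of -0.18 ± 0.21. Yars measured 4.02, 4.80 and 4.34 in 5G2del and 4.52, 4.93, 4.23 and 4.35 in WT, a log2 fold change of -0.12 ± 0.25. Eprs measured 7.01, 7.29 and 7.18 in 5G2del and 7.36, 7.53, 7.09 and 7.00 in WT, a log2 fold change of -0.08 ± 0.17 with a 95% interval of -0.45 to 0.28. These 3 were the only cytosolic members with a lower mean in 5G2del, and leaving out 1 library turned the sign of each.

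Of the shared genes, Gars measured 5.83, 6.23 and 6.06 log2 CPM in 5G2del and 6.08, 6.27, 5.41 and 5.44 in WT. Its log2 fold change was 0.24 ± 0.23, with 0.11 without WT-C and 0.40 without WT-B. Kars measured 5.93, 6.17 and 6.12 in 5G2del and 6.26, 6.08, 5.78 and 5.72 in WT. Its log2 fold change was 0.12 ± 0.18, with 0.036 without WT-D and 0.21 without WT-A. WT-A and WT-B lay within or above the 5G2del values in both genes, and WT-C and WT-D lay below them.

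Among mitochondrial members, Sars2, for serine, measured 2.49, 2.80 and 3.15 log2 CPM in 5G2del and 2.60, 0.81, 2.37 and 2.77 in WT. Its log2 fold change was 0.68 ± 0.47, with 0.23 without WT-B and 0.89 without WT-D. Wars2 measured 2.22, 2.55 and 3.27 in 5G2del and 2.92, 1.90, 1.95 and 1.98 in WT, a log2 fold change of 0.49 ± 0.39. Leaving out WT-B lowered the difference in Sars2, as it did in Aars2, while in Wars2 WT-A stood above the other WT libraries. The Wars2 value was 0.20 without 5G2del-C, the highest library, and 0.74 without WT-A.

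On the lower side, Fars2, for phenylalanine, measured 2.20, 2.89 and 3.34 log2 CPM in 5G2del and 3.21, 3.19, 2.99 and 3.71 in WT, a log2 fold change of -0.46 ± 0.33. Pars2, for proline, measured 1.82, 2.80 and 1.70 in 5G2del and 2.71, 3.20, 1.90 and 1.71 in WT, a log2 fold change of -0.27 ± 0.46. Nars2, for asparagine, measured 3.01, 3.99 and 3.41 in 5G2del and 3.91, 4.06, 3.33 and 3.56 in WT, a log2 fold change of -0.25 ± 0.30. The groups overlapped in all 3, and 5G2del-A was the lowest library for Fars2 and Nars2. Single libraries carried much of these differences: without 5G2del-A the value was -0.16 for Fars2 and -0.014 for Nars2, and without WT-B it was -0.0019 for Pars2. Other omissions widened them: without 5G2del-C the value was -0.73 for Fars2, and without 5G2del-B it was -0.51 for Nars2 and -0.62 for Pars2. For Lars2 the log2 fold change was 0.19 ± 0.20, with 0.061 without WT-A and 0.31 without WT-C.

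The cytosolic members not yet given were Rars for arginine, Lars for leucine, Hars for histidine and Sars for serine. They ranged from 4.39 log2 CPM (Sars in WT-C) to 6.33 (Rars in WT-B). Further mitochondrial members were Cars2, Ears2, Hars2, Rars2, Tars2 and Vars2, for cysteine, glutamate, histidine, arginine, threonine and valine, from 2.54 log2 CPM (Ears2 in WT-D) to 4.86 (Cars2 in WT-B). The groups overlapped for each of these genes. Hars and Hars2 lie head to head on chromosome 18 and share 195 bases of annotated exons on opposite strands, so reads there can be counted for either.

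**Figure D4:**
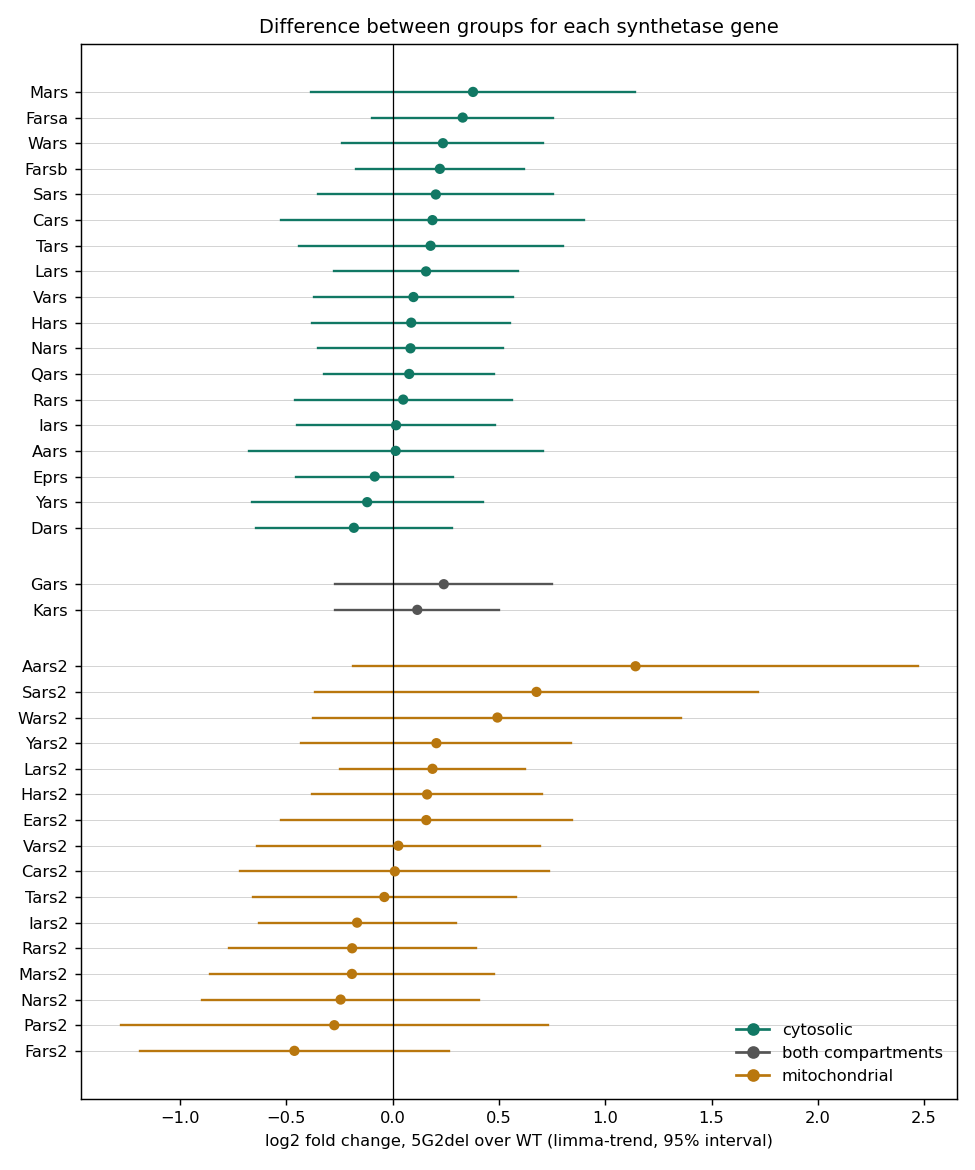
Log2 fold change of 5G2del over WT for 36 of the 37 members from limma-trend (horizontal axis), with 95% intervals; green is cytosolic, grey serves both compartments and orange is mitochondrial. Every interval shown includes 0, and the intervals of mitochondrial genes such as Aars2 (-0.19 to 2.47) are wider than those of cytosolic genes such as Eprs (-0.45 to 0.28).

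Subgroups of the cytosolic enzymes were set side by side. Of the 8 synthetases of the multi-synthetase complex, a cytosolic assembly of synthetases on scaffold proteins, 6 had a higher mean in 5G2del (median log2 fold change 0.06). Of the 12 free enzymes 11 did, with a median of 0.18. Class I and class II enzymes, which differ in the fold of the catalytic domain, had 8 of 9 and 9 of 10 higher, with medians of 0.10 and 0.15. These counts also moved with single libraries. Without 5G2del-B they were 4 of 8, 7 of 12, 5 of 9 and 6 of 10 in the same order. Without WT-C they were 4 of 8, 8 of 12, 5 of 9 and 7 of 10. Other omissions raised them, to 7 of 8, 12 of 12, 9 of 9 and 10 of 10 without 5G2del-A. Without WT-B they were 7 of 8, 12 of 12, 9 of 9 and 9 of 10. The scaffold genes Aimp2, Aimp1 and Eef1e1 had log2 fold changes of 0.49 ± 0.30, 0.12 ± 0.23 and -0.12 ± 0.26.

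The other genes of tRNA charging and use gave 0 members past an adjusted p of 0.05 in limma. Of 5 relatives of the synthetases, 3 had a higher mean, with a median log2 fold change of 0.07, and Tarsl2, a second cytosolic threonine enzyme, stood at -0.46 ± 0.31. Of 4 helpers of mitochondrial charging, 3 were higher, with a median of 0.15, including Qrsl1, a subunit of the amidotransferase that makes glutamine tRNA in mitochondria, at 0.49 ± 0.36. Of 4 genes of selenocysteine charging, 2 were higher, with a median of 0.01. All 5 cytosolic elongation factor genes had a higher mean, with a median of 0.18, and Eef1g, at 0.27 ± 0.20, was the largest. Of 4 mitochondrial elongation factor genes 2 were higher, with Tsfm at 0.65 ± 0.46 and Gfm2 at -0.38 ± 0.28.

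Of 11 kinases and factors of the amino acid response, 5 had a higher mean in 5G2del and 6 a lower one (median log2 fold change -0.02). Atf4 stood at 0.07 ± 0.21. Ddit3, a stress-induced C/EBP-family factor, had groups that did not overlap, at 2.56, 2.95 and 2.57 log2 CPM in 5G2del and 2.45, 2.11, 2.09 and 2.55 in WT, a log2 fold change of 0.39 ± 0.31. The gap between its groups was small, and its reads can be shared with Mars as described.

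Of 24 ATF4 targets that are no synthetases, 19 had a higher mean in 5G2del (79.2%), beside the 53.3% of all genes. The median log2 fold change of the 24 was 0.25. This count is not given here with single libraries left out. Some of the 19 had low levels, such as Slc7a11, Nupr1 and Chac1 at means of -2.17, -0.93 and -0.65 log2 CPM. In limma 0 of them passed an adjusted p of 0.05, and 2 had an unadjusted p under 0.05, 1 in each direction, beside 1.68% of all genes higher and 2.24% lower. Mthfd2, a mitochondrial enzyme of folate metabolism, measured 2.43, 3.11 and 2.88 log2 CPM in 5G2del and 2.46, -0.40, 1.13 and 1.02 in WT, a log2 fold change of 1.75 ± 0.59. WT-A reached the 5G2del values, and the other 3 WT libraries were lower. Vldlr, a lipoprotein receptor, measured 6.11, 5.76 and 6.03 in 5G2del and 6.50, 6.49, 7.17 and 6.88 in WT, a log2 fold change of -0.80 ± 0.20. Its groups did not overlap, and every 5G2del library was below every WT library (limma unadjusted p = 0.00185, adjusted p = 0.989).

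The remaining targets had overlapping groups. Psat1, an enzyme of serine synthesis, averaged 6.29 ± 0.33 log2 CPM in 5G2del and 5.84 ± 0.31 in WT (SD over 3 and 4 libraries), a log2 fold change of 0.46 ± 0.21. Slc6a9, a glycine transporter, and Ddit4, an inhibitor of mTORC1 signalling, had log2 fold changes of 1.01 ± 0.88 and -0.75 ± 0.57, at mean levels of -0.64 and 1.81 log2 CPM, with 95% intervals that include 0. Asns stood at 0.36 ± 0.43, at 0.064 without WT-C and at 0.63 without WT-A.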

How the data were processed

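RNA sequencing of 4 WT and 3 5G2del samples was used. Per the labels' protocols, Trizol RNA was purified on columns, the Ovation RNA-Seq System V2 made the libraries, and both ends were read. Values are log2 CPM deposited by the authors for 16760 genes in 1 table, with the authors' own log2 fold change, t score, p-value and q-value. The tools were STAR (2.7.9a), RSEM (version 1.3.0) and limma (version 3.50.3), per the submitters' processing notes, which also list mm10 and GRCh38 with no role stated. Not given in the sources used here are annotation, filter, scaling and strand. Every library column was mapped to a group, and 0 were left out of the map.

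Each deposited log2 CPM value gives back an expected count with 2 decimals once an added 0.5 count is removed, so no count model was used. A voom fit rebuilt from them matched the authors' deposited t score to within 5e-10. A floor of 3 counts is 0.0538 to 0.0860 CPM, for counting error alone, since reads were amplified and carry no molecular identifiers. RSEM divides reads among similar genes.

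limma 3.58.1 with the trend option (limma-trend, under R 4.3.3) was fitted over all genes, two-sided, with Benjamini-Hochberg adjustment over all of them, after being tested on simulated data. Fold changes are 5G2del over WT on the scale of log2 CPM. Members and lists were chosen with earlier results of these data known, so lists are described by counts and medians and not tested. Lengths and overlaps came from GENCODE M21, and look-alike transcripts from BLAST 2.17.0 (at least 100 bases and 95% identity). Values in all libraries were given for members whose groups do not overlap, for the 3 largest differences in each direction and the 3 highest and lowest levels per kilobase in each compartment, and, from the other lists, fold changes for genes at an unadjusted p under 0.05 and the 2 largest in each direction. Farsb, Tars, Qars, Asns, Atf4, Ddit3, Psat1 and the other named genes of the lists were added after their values were seen. 1 member is not reported here by itself and enters only counts, medians and means over the members. Alternatives were the fit without the trend, the rebuilt voom fit, quantile normalization, plain totals, log2(CPM + 1), a mean log2 CPM over 2, leaving out each library, Gars and Kars counted as cytosolic, the longest transcript, and, chosen after seeing the data, leaving out Lars2, sums over each set in place of medians, and subgroup counts with 1 library left out.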

Additional observations from a re-analysis of the deposited data

Results flagged for a closer look

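In the WT group of 4 libraries, 1 value stood apart from the other 3 by Dixon's test at the 95% level for 4 members and 1 score. Lars was lowest in WT-C, at 5.02 log2 CPM. Qars was lowest in WT-B, at 5.07. Ears2, the mitochondrial glutamate enzyme, was lowest in WT-D, at 2.54. Wars2 was highest in WT-A, at 2.92. The cytosolic minus the mitochondrial mean was highest in WT-B, at 2.00. These are 5 of 39 values examined (12.8%), and chance gives about 1 in 20. WT-B, with 2 of the 5, was also the library with 1104 genes at 0 counts, whose part in these values was not tested.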

How the results depend on the processing

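Under every refit of the comparison, 0 members and 0 of the other listed genes of tRNA charging and the amino acid response passed an adjusted p of 0.05 in limma; 36 members, without Aars2, were tested where a mean log2 CPM over 2 was required, and 37 in the other refits. Over all genes 1 passed without the trend, and between 0 and 1 did with 1 library left out. The ratio of the cytosolic to the mitochondrial median level per kilobase ran from 4.16 to 4.39 with 1 library left out, and was 3.99 with the longest transcript, 4.26 with quantile normalization, 4.76 with Gars and Kars counted as cytosolic and 4.41 without Lars2. The cytosolic median log2 fold change ran from -0.01 without 5G2del-B to 0.25 without WT-B, and the mitochondrial one from -0.11 without 5G2del-B to 0.11 without WT-B. The difference between groups in the cytosolic minus the mitochondrial mean ran from -0.04 without WT-C to 0.17 without WT-B. For the 31 genes named with a fold change apart from Cux1, 389 of 398 alternative values kept their direction. Among these values, those of the fit without the trend and of the mean log2 CPM filter equal the main ones and could not turn. The 9 that turned, in 6 genes, all came from leaving out 1 library, and the cause was not tested. For 28 of the 31, leaving out 1 library moved the log2 fold change by over 1.5 times or turned it; the exceptions were Vldlr, Mthfd2 and Ddit3. The leave-one-out ranges of the 6 that turned were -0.33 to 0.0093 for Dars, -0.33 to 0.064 for Yars, -0.17 to 0.012 for Eprs, -0.078 to 0.25 for Aimp1, -0.40 to 0.089 for Eef1e1 and -0.14 to 0.21 for Atf4. No paired analysis was possible because the library columns carry no replicate number of the labels. With 3 and 4 libraries, and 33 expected counts at the lowest member value, small differences in the mitochondrial genes were not detectable.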
